A study of Homo sapiens with 6 samples.

Results

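The genes described here are 10 carriers of immunogenic cell death signals and heat-shock proteins: CALR, PDIA3, HMGB1, ANXA1, PANX1, HSP90AA1, HSPA1A, HSPA1B, HSPH1 and DNAJB1. They were taken by symbol from the 16390 genes of the count tables, and all 10 were found and passed the filter on low counts. SW780 is a line of human bladder cancer cells used as a luminal type. RC48, disitamab vedotin, joins an antibody against the receptor ERBB2 to monomethyl auristatin E, which blocks microtubules. The groups were 3 Control libraries and 3 libraries made from SW780 after RC48 (25 µg/ml), all of total RNA. The exposure time is not given in the sources used here, and nothing says whether the libraries of a group came from separate cultures, so p-values measure only the spread between these libraries.

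Immunogenic cell death is a form of death in which a dying cell shows or releases molecules that alert phagocytes and dendritic cells. Calreticulin moves from the endoplasmic reticulum to the cell surface together with its partner PDIA3, ATP leaves through pannexin channels, and HMGB1 and annexin A1 are released to act on receptors of immune cells. Heat-shock proteins fold other proteins inside the cell and can carry antigen once outside it. These steps are mostly movements of protein, while the values here are levels of RNA, so exposure and release were not measured.

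Counts estimated by RSEM summed to 16453233 to 17988030 per library. They are given as CPM, counts scaled to library size with edgeR's TMM factors. The lowest count of any of the 10 genes in a library was 591, for PANX1 in Control replicate 1, with a 95% Poisson interval of 544 to 641 that covers counting error only. Replicates differed by more than counting noise, with a chi-square per degree of freedom of 1.5 to 12.2 between Control libraries and 23.1 to 140 between RC48 libraries. In RC48 replicates 1 and 3, but much less in replicate 2, the ratio to the Control mean moved with the GC content of the transcripts over all genes, so values with an offset for that trend are given beside those without it. All 7 luminal markers examined were detected, GATA3 with 3797 to 5070 counts per library but KRT20 with only 8 to 35. All 4 basal markers were detected as well, CD44 with 4717 to 5853 counts per library. Detection alone therefore does not tell luminal from basal cells. The 6 leukocyte markers summed to 18 to 19 CPM in Control and 19.6 to 34.9 CPM in RC48 libraries, most of it from CD68 with 287 to 562 counts, while PTPRC had 0 or 1 count and MS4A1 had no row.

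After RC48, none of the 10 genes passed an adjusted p-value of 0.05 (0 of 10, edgeR's quasi-likelihood F-test, adjusted by Benjamini-Hochberg over 13055 genes, n = 3 libraries per group). Over all genes tested, 2.21% passed, 1.98% higher and 0.23% lower after RC48. This split between 258 higher and 30 lower genes was 531 and 395 with an offset for GC content, and 1862 and 1864 without RC48 replicate 2. At an unadjusted p under 0.05 there were 2 of the 10, HSPA1A and HSPA1B, and 2499 of all genes. DESeq2 called 0 of the 10 as well, beside 744 of the 13055 genes. The fitted log2 fold changes were positive in 5 genes and negative in 5, with a median of −0.01 beside 0.02 over all genes. In 2 genes, HSPA1A and HSPA1B, the RC48 libraries all lay above the highest Control library, as in 17.4% of all genes. In 2 others, HMGB1 and HSP90AA1, they all lay below the lowest Control library, as in 14.1% of all genes. These shares of 2 in 10 are near the background. In the remaining 6 genes the groups overlapped. With 3 libraries against 3, the two-sided exact permutation test of a single gene cannot give a p under 0.1, and that was its value for each of the 4 genes that did not overlap.

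**Figure D1:**
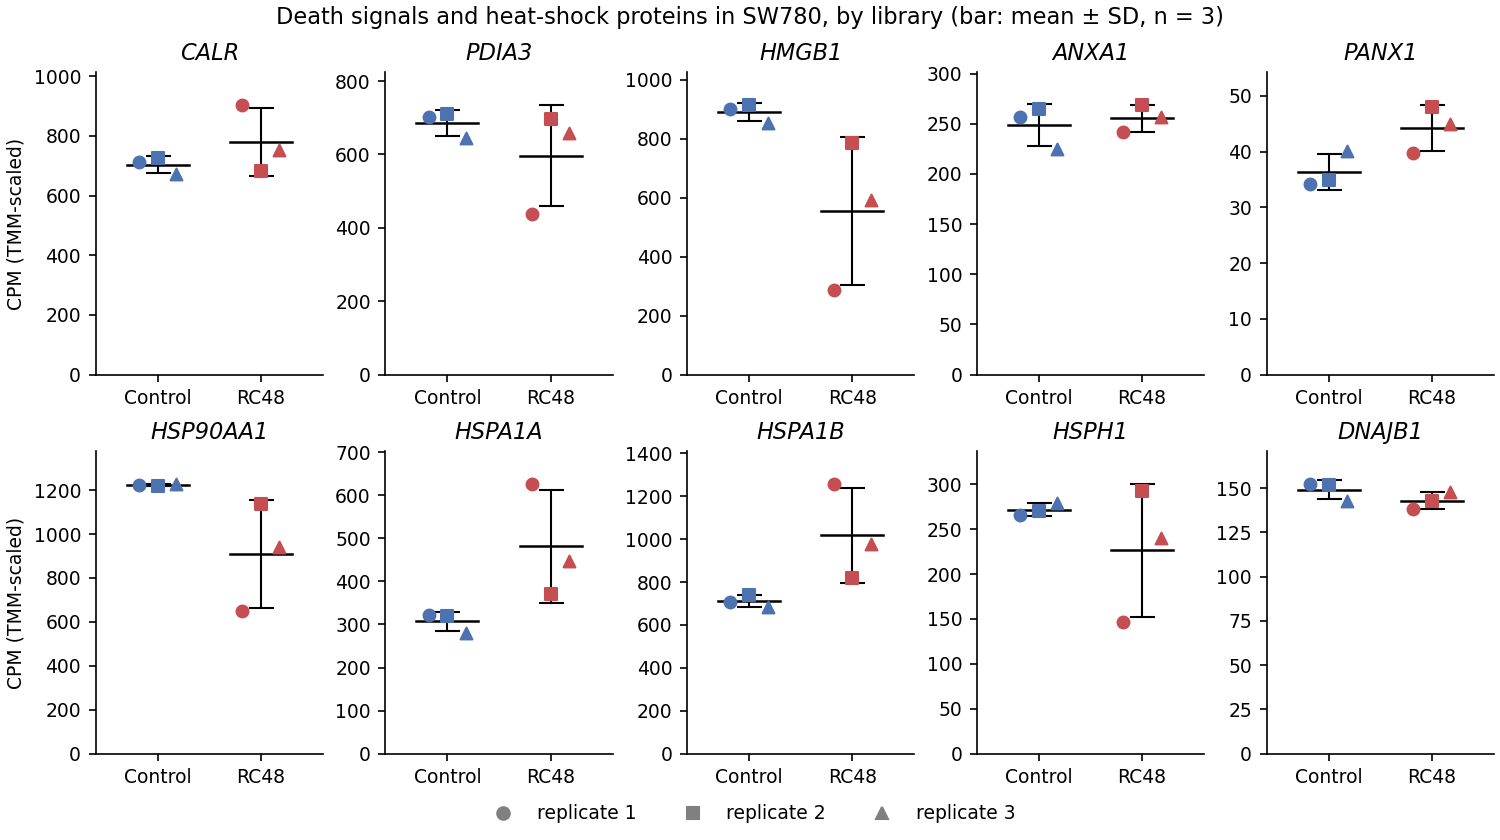
CPM of the 10 genes in each library (vertical axis, linear from 0, a scale of its own in each panel), with Control in blue and RC48 in red, marker shapes for replicate numbers and bars for mean ± SD (n = 3). HSPA1A and HSPA1B lie higher and HMGB1 and HSP90AA1 lower in all RC48 libraries, and in these 4 genes RC48 replicate 1 lies farthest from Control and replicate 2 nearest to it.

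The largest fitted rise and the lowest p among the 10 belonged to the stress-inducible HSP70 pair. HSPA1A (NCBI gene 3303) and HSPA1B (NCBI gene 3304) encode HSP70 proteins that are nearly identical and bind unfolded stretches of other proteins. In RefSeq's annotation of GRCh38.p14 they are neighbours at chr6:31815543-31817942 and chr6:31827738-31830254, with 9795 bases from the end of HSPA1A to the start of HSPA1B. Their promoters are nearly the same sequence, with 235 identical bases in 251 aligned positions (93.6%). Both are shown here, from 130 to 31 bases before the start on the plus strand, at chr6:31815413-31815512 and chr6:31827608-31827707, because reads of these genes cannot be told apart over most of their length and this upstream stretch is shared as well. Capitals mark a heat-shock element of 2 inverted units, the site bound by heat-shock factors.
HSPA1A: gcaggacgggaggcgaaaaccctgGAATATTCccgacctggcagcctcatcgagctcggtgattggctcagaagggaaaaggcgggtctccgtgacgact
HSPA1B: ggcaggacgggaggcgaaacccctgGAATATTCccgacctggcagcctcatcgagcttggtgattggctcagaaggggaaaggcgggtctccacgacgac

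HSPA1A stood at 321, 319 and 281 CPM in Control replicates 1, 2 and 3 and at 627, 371.5 and 447 CPM in RC48 replicates 1, 2 and 3. All RC48 values were above all Control values, and RC48 replicate 1 was the highest. The fit gave a log2 fold change of 0.65 (standard error 0.19, 95% interval 0.20 to 1.10, unadjusted p = 0.0106, edgeR adjusted p = 0.165), a 1.57-fold higher level. HSPA1B stood at 708.5, 741 and 685 CPM in Control and at 1259, 819 and 976 CPM in RC48 libraries. The groups again did not overlap, and the order of the RC48 libraries was that of HSPA1A. The fit gave it a log2 fold change of 0.52 (standard error 0.17, 95% interval 0.13 to 0.90, unadjusted p = 0.0147, edgeR adjusted p = 0.183). The offset for GC content brought this to 0.21 (unadjusted p = 0.0235, edgeR adjusted p = 0.132).

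The split of reads between these copies is uncertain. Of the 50-base stretches of HSPA1A transcripts, 72.6% also occur in HSPA1B transcripts, and 71.4% of those of HSPA1B occur in HSPA1A. HSPA1A held 31.2%, 30.1% and 29.1% of the counts of both genes in Control and 33.3%, 31.2% and 31.4% in RC48 libraries, with means of 30.1% and 32%. The counts of both genes were therefore also added. The sum was 1029.6, 1060.4 and 966 CPM in Control and 1886, 1190.2 and 1423 CPM in RC48 libraries, with every RC48 library higher. The log2 fold change of the sum was 0.56 (standard error 0.17, 95% interval 0.15 to 0.96, unadjusted p = 0.0129, edgeR adjusted p = 0.176). With the offset for GC content it was 0.25 (edgeR adjusted p = 0.0992), and the GC corrected sums still did not overlap, at 1126, 1153 and 1093 CPM in Control and 1389, 1277 and 1339 CPM in RC48 libraries.
HSPA8, the constitutive HSP70 of the cytosol, was taken as a reference with its values known, so a ratio to it is no independent check. This ratio has no offset for GC content. The TPM of both HSPA1 genes divided by that of HSPA8 was 0.675, 0.676 and 0.632 in Control and 1.21, 0.814 and 0.956 in RC48 libraries. HSPA8 itself had a log2 fold change of −0.03 (edgeR adjusted p = 0.842).

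HSP90AA1 (NCBI gene 3320, chr14:102080742-102139749) encodes the inducible HSP90 of the cytosol, which holds kinases and hormone receptors ready for activation. Of its 2 promoter windows in RefSeq, the one shown holds a run of 3 alternating heat-shock units. It is the only such run in the windows of the 9 genes that had any. The stretch lies at chr14:102087075-102087174 on the minus strand, from 130 to 31 bases before the start. Capitals mark this run and a further match of 2 inverted units.
HSP90AA1: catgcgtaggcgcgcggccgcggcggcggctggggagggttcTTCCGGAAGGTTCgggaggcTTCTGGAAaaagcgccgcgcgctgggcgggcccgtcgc

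The level of HSP90AA1 was 1223, 1218 and 1229 CPM in Control and 649, 1138 and 943 CPM in RC48 libraries. Every RC48 library lay below the narrow Control range, RC48 replicate 2 nearest to it. Its fold change on the log2 scale was −0.43 (standard error 0.20, 95% interval −0.88 to 0.02, unadjusted p = 0.0609, edgeR adjusted p = 0.272), opposite in sign to that of the HSPA1 pair. The offset for GC content brought it to −0.36 (95% interval −0.66 to −0.07, unadjusted p = 0.0216, edgeR adjusted p = 0.127). Of its 50-base stretches, 17.5% occur in transcripts of other genes, most of them in the processed pseudogene HSP90AA2P. The TPM of HSP90AA1 divided by that of HSP90AB1, the constitutive HSP90 gene, was 0.626, 0.631 and 0.647 in Control and 0.45, 0.678 and 0.543 in RC48 libraries, and these groups overlapped.

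DNAJB1 (NCBI gene 3337, chr19:14514769-14560391) encodes an HSP40 protein that hands substrates to HSP70 and starts its ATP cycle. The promoter window shown, at chr19:14518428-14518497 on the minus strand and from 100 to 31 bases before the start, holds 2 separate heat-shock matches in capitals.
DNAJB1: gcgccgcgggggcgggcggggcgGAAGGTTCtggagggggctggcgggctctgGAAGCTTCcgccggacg

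DNAJB1 was at 153, 152 and 143 CPM in Control and at 138, 143 and 148 CPM in RC48 libraries. The groups overlapped, and the fitted change was −0.06 on the log2 scale (standard error 0.11, 95% interval −0.30 to 0.18, edgeR adjusted p = 0.716). The offset for GC content moved it to −0.26 (95% interval −0.53 to 0.01, unadjusted p = 0.0544, edgeR adjusted p = 0.203). HSPH1 (NCBI gene 10808, chr13:31134973-31162388) encodes HSP110, which exchanges the nucleotide of HSP70 and helps it to dissolve aggregates. Its level was 265.5, 269.7 and 279.5 CPM in Control and 147, 293 and 240.2 CPM in RC48 libraries, so RC48 libraries lay on both sides of Control. HSPH1 had a log2 fold change of −0.26 (standard error 0.23, 95% interval −0.79 to 0.27, edgeR adjusted p = 0.474), and 0.08 with the offset for GC content (edgeR adjusted p = 0.537). Of these 4 genes of the HSP70 system, the 2 HSP70 genes had positive estimates and DNAJB1 and HSPH1 negative ones, none of them past the threshold.

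The heat-shock element was searched as 2 inverted units, GAANNTTC or TTCNNGAA, each of which reads the same on both strands, in RefSeq windows from 250 bases before to 50 bases after a start. There were 14 windows for 9 of the 10 genes, and PDIA3 had none and was not searched. A match lay in at least 1 window of 6 genes: HSPA1A, HSPA1B, HSP90AA1, DNAJB1, PANX1 and HMGB1. Of all 35116 windows, 13.5% held such a match, and 0.49% held 3 alternating units, which overlap with the matches of 2. These shares are per window, while the 6 are counted per gene and some genes had several windows, so the measures are unlike. The 6 genes included positive and negative fold changes. For CALR, ANXA1 and HSPH1 these letters were not in the windows.

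CALR (NCBI gene 811, chr19:12938609-12944489) encodes calreticulin, a calcium-binding chaperone of glycoproteins that acts as a signal for uptake when it reaches the cell surface. Its promoter is shown because it holds the ER stress element, the site of the unfolded protein response, spelled CCAAT and CCACG with 9 bases between and searched on both strands. The stretch lies at chr19:12938369-12938418 on the plus strand, from 240 to 191 bases before the start, and capitals mark both parts of the element, which here reads from the opposite strand. The element was present in 27 of the 35116 windows.
CALR: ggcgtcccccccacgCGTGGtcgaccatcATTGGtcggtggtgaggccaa

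The level of CALR was 713, 725 and 671.5 CPM in Control and 905, 681 and 752 CPM in RC48 libraries. RC48 replicate 2 lay within the Control range and the other two above it. The log2 fold change was 0.15 (standard error 0.13, 95% interval −0.16 to 0.46, edgeR adjusted p = 0.485), and it was −0.08 with the offset for GC content (edgeR adjusted p = 0.518). PDIA3 (NCBI gene 2923, chr15:43746438-43773278) encodes ERp57, the disulphide isomerase that works with calreticulin and reaches the surface with it. It was at 701, 709 and 644 CPM in Control and at 438, 695 and 657 CPM in RC48 libraries, and only RC48 replicate 1 lay outside the Control range. For PDIA3 the fit gave −0.20 on the log2 scale (standard error 0.18, 95% interval −0.61 to 0.22, edgeR adjusted p = 0.484), and −0.24 with the offset for GC content (edgeR adjusted p = 0.367). Of its 50-base stretches, 18.4% also occur in transcripts of PDIA3 pseudogenes.

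HMGB1 (NCBI gene 3146, chr13:30456704-30617597) encodes a chromatin protein that acts on toll-like receptors once it has left a dying cell. Its level was 901, 915 and 854 CPM in Control and 286, 784 and 593 CPM in RC48 libraries. Every RC48 library was lower, and their SD was the widest of the 10 genes, 554 ± 251 CPM (SD, n = 3) against 890.1 ± 31.7 CPM in Control. Its estimate on the log2 scale was −0.68 (standard error 0.32, 95% interval −1.41 to 0.05, unadjusted p = 0.063, edgeR adjusted p = 0.274). It was −0.44 with the offset for GC content (edgeR adjusted p = 0.14). Of its 50-base stretches, 15.5% occur in transcripts of HMGB1 pseudogenes.

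ANXA1 (NCBI gene 301, chr9:73151865-73170393) encodes annexin A1, a ligand of the formyl peptide receptor FPR1 that guides dendritic cells to dying cells. It was at 257, 265 and 225 CPM in Control and at 242, 268 and 257 CPM in RC48 libraries, and the groups overlapped. The estimated log2 fold change was 0.04 (standard error 0.12, 95% interval −0.23 to 0.31, edgeR adjusted p = 0.835). With the offset for GC content it was 0.43 (unadjusted p = 0.0372, edgeR adjusted p = 0.167), while it was −0.02 with library sizes alone in place of TMM. PANX1 (NCBI gene 24145, chr11:94128841-94181968) encodes the pannexin channel through which ATP leaves dying cells. It was the least abundant of the 10, at 34.2, 34.9 and 40.1 CPM in Control and 39.8, 48 and 45 CPM in RC48 libraries. Only the highest Control and the lowest RC48 library crossed, and the log2 fold change was 0.28 (standard error 0.14, 95% interval −0.03 to 0.60, unadjusted p = 0.0734, edgeR adjusted p = 0.283). The offset for GC content left it at 0.27 (95% interval 0.05 to 0.48, unadjusted p = 0.0212, edgeR adjusted p = 0.126).

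**Figure D2:**
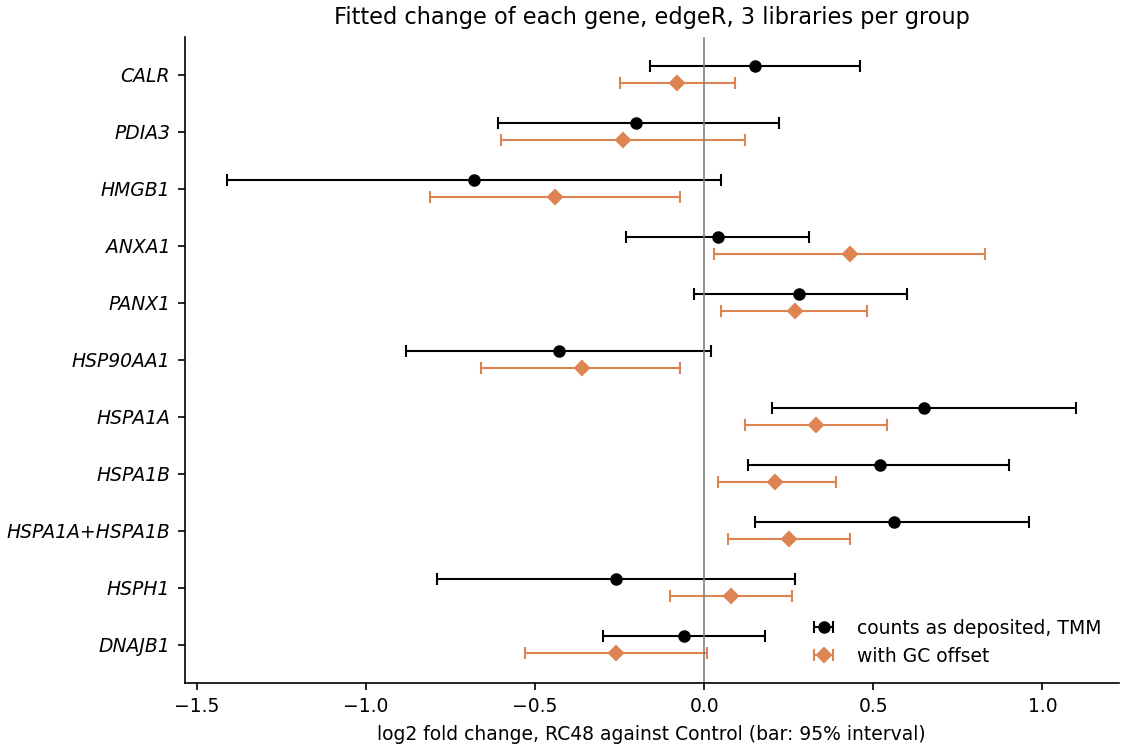
Fitted log2 fold change of RC48 against Control (horizontal axis) with its 95% interval, from edgeR on 3 libraries per group, for the 10 genes and for the sum of HSPA1A and HSPA1B. Black circles are the fit on deposited counts with TMM and orange diamonds the fit with an offset for GC content. The estimates of CALR and HSPH1 change sign between the fits.

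Each of the 10 genes was then set beside genes of like GC content, in 10 classes of 1299 to 1301 genes ordered by GC content, since RC48 libraries differed in this respect. In RC48 replicate 1 the class median of the log2 ratio to the Control mean ran from −0.93 at the lowest GC content to 0.65 at the highest. In replicate 3 it ran from −0.36 to 0.24, and in replicate 2 it stayed between 0 and 0.03. HSPA1A, with a GC content of 59.3% over its transcripts, had log2 ratios of 1.03, 0.28 and 0.54 in RC48 replicates 1, 2 and 3, where its class had medians of 0.61, 0.01 and 0.22. HSPA1B, at 58.7%, had 0.82, 0.20 and 0.46, beside medians of 0.50, 0.00 and 0.18. Both thus lay above the median of their class in each RC48 library.
HMGB1, at 40.9%, had log2 ratios of −1.64, −0.18 and −0.59, beside medians of −0.68, 0.01 and −0.26. HSP90AA1, at 46.5%, had −0.91, −0.10 and −0.38, beside −0.29, 0.03 and −0.09. These genes lay below the median of their class in each RC48 library. HSPH1, at 38.9%, had −0.89, 0.11 and −0.18, beside −0.93, 0.01 and −0.36, so its low value in replicate 1 was that of its class. ANXA1, at 39.8%, was in the same class and had −0.04, 0.11 and 0.05, above the median in each library. DNAJB1, at 55.5%, had −0.11, −0.06 and −0.01, beside 0.33, 0.01 and 0.14, below the median in each library. PANX1, at 48.9%, had 0.13, 0.40 and 0.31, beside −0.06, 0.02 and −0.01, and lay above the median in each library. CALR, at 55.8%, had 0.36, −0.05 and 0.10, beside 0.33, 0.01 and 0.14, close to its class. PDIA3, at 49.4%, had −0.64, 0.02 and −0.06, beside −0.06, 0.02 and −0.01, and only its value in replicate 1 stood apart. What part of each difference goes with this trend of the libraries and what part with RC48 was not tested.

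**Figure D3:**
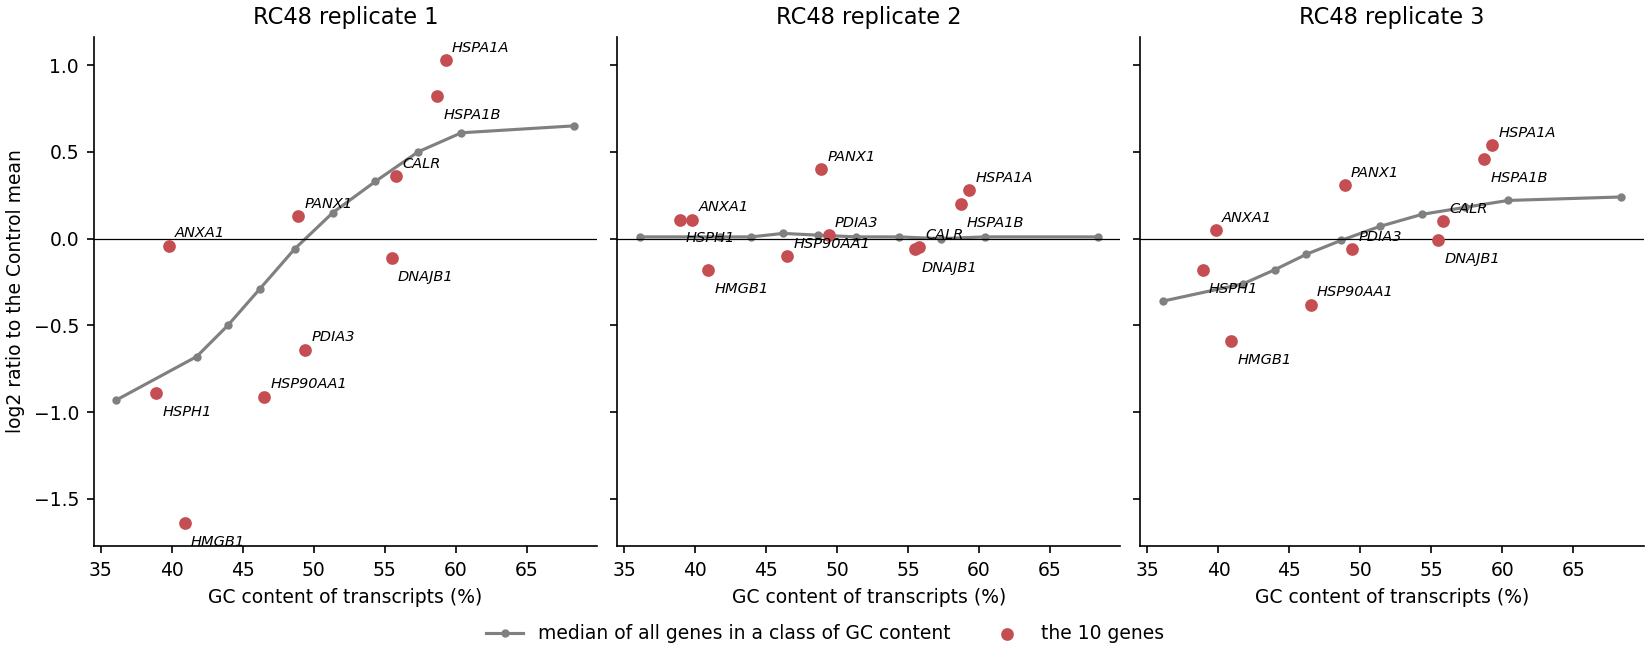
Log2 ratio to the Control mean for each RC48 library (vertical axis) against the GC content of the transcripts (horizontal axis, %), with 1 panel per RC48 library. Red points are the 10 genes and the grey line joins the medians of all genes in 10 classes of GC content. In RC48 replicate 1 the line climbs from −0.93 to 0.65, and in replicate 2 it is flat.

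With the offset for GC content, 0 of the 10 genes were called, beside 7.09% of all genes, and 6 of the 10 had an unadjusted p under 0.05, as did 3355 of the 13055 genes tested. HSPA1A had the lowest value, with a log2 fold change of 0.33 (unadjusted p = 0.00586, edgeR adjusted p = 0.066). GC corrected CPM did not overlap in 3 genes that were higher after RC48 (PANX1, HSPA1A and HSPA1B), beside 14.5% of all genes, and in 4 that were lower (CALR, HMGB1, HSP90AA1 and DNAJB1), beside 19.3% of all genes. GC corrected HSPA1A stood at 351.5, 348 and 319 CPM in Control and 459.8, 399 and 420.5 CPM in RC48 libraries. GC corrected HMGB1 stood at 807, 829 and 745 CPM in Control and 429, 682 and 641.5 CPM in RC48 libraries.

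Single libraries moved the calls. Without RC48 replicate 2, 4 of the 10 genes were called beside 28.3% of all genes: HSPA1A (log2 fold change 0.80, edgeR adjusted p = 0.0206), HSPA1B (0.65, 0.0228), HMGB1 (−1.02, 0.0315) and HSP90AA1 (−0.62, 0.0336). Without RC48 replicate 1, only HSPA1A was called (0.41, edgeR adjusted p = 0.0418), beside 6.82% of all genes. Most other estimates came nearer to 0 without that library, at 0.33 for HSPA1B, −0.38 for HMGB1, −0.24 for HSP90AA1, 0.02 for CALR, −0.04 for DNAJB1, and −0.03 for both PDIA3 and HSPH1. Those of PANX1 and ANXA1 moved away from 0, from 0.28 to 0.35 and from 0.04 to 0.07. Without any other library, 0 of the 10 were called, and calls over all genes were few as well, from 68 of 13197 to 93 of 13172. Limma on log2(TPM+1) in the 5 libraries with deposited TPM, which lacks RC48 replicate 2 as well, called the same 4 genes as the fit without that replicate, beside 24.3% of all genes. Limma's voom with sample quality weights called these 4, PANX1 and HSPH1, 6 of 10, beside 61.4% of all genes. The members' share was not above the background of that fit.

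Levels were compared between genes in TPM, which accounts for transcript length. In Control, the order of the means was CALR at 778 ± 12.3 TPM, HSP90AA1 at 736 ± 42.4, HSPA1B at 567 ± 16.9, ANXA1 at 402 ± 13.2, PDIA3 at 356 ± 1.89, HMGB1 at 322 ± 4.9, HSPA1A at 258 ± 5.65, DNAJB1 at 136 ± 2.45, HSPH1 at 96.9 ± 7.77 and PANX1 at 25.2 ± 3.66 (SD, n = 3). CALR and HSP90AA1 overlapped, while the libraries of every other pair of neighbours were separate. In RC48 libraries, CALR at 801 ± 51.4 TPM stayed highest, followed by HSPA1B at 758 ± 109.9 and HSP90AA1 at 525 ± 175 TPM. HSPA1A was at 377 ± 74.2 TPM, in place 5 of the order where it had been in place 7. From CALR down to DNAJB1, neighbours in the RC48 order overlapped, and only HSPH1 at 78.5 ± 29 and PANX1 at 29.1 ± 4.71 TPM were separate from the gene above them. The TPM of RC48 replicate 2 was computed from its counts.

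**Figure D4:**
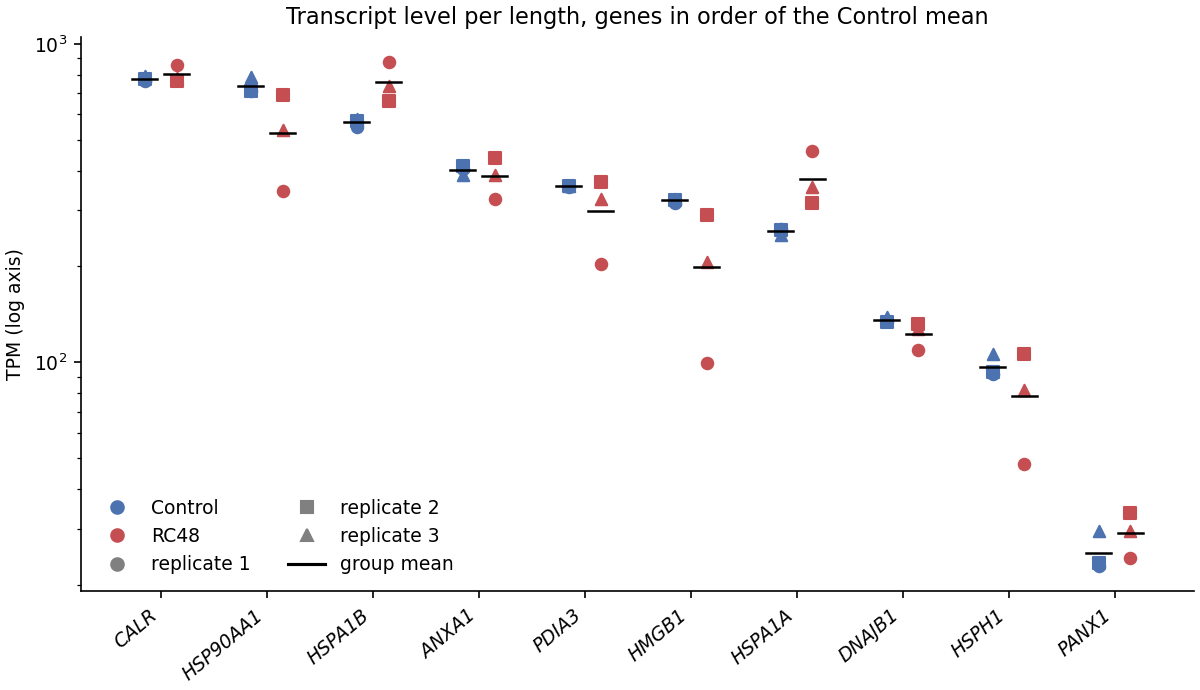
TPM of the 10 genes in each library (vertical axis, log scale), in the order of the Control mean, with Control in blue, RC48 in red and black lines at group means. CALR is highest in both groups and PANX1 lowest, and the RC48 libraries are spread more widely than the Control libraries in each gene.

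Genes related to the 10 were taken from 9 lists with 120 genes, of which 109 were tested. After RC48, 4 of them rose and 0 fell, 3.67% of those tested beside 2.21% of all genes: HSPB8, IL1A, S100A9 and ANXA3. With the offset for GC content 9 were called, these 4 with DNAJB6, ANXA2 and CD47 higher and HSPD1 and ANXA9 lower. Calls over all genes rose as well with that offset, from 288 to 926 (7.09%). The lists are described by counts and medians only. Over all genes, 2499 of 13055 had an unadjusted p under 0.05 in the main fit.

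Of other heat-shock proteins and factors, 18 were tested, 7 with a positive and 11 with a negative log2 fold change, with a median of −0.07. Among them 3 had an unadjusted p under 0.05. HSPB8, a small heat-shock protein that works with BAG3 in clearing misfolded proteins, was the only gene called, at 24.5, 23.6 and 27.3 CPM in Control and 41.5, 49.4 and 48.8 CPM in RC48 libraries. The log2 difference was 0.89 (standard error 0.14, edgeR adjusted p = 0.0184), and RC48 replicate 1 was its lowest RC48 value. The call was lost when Control replicate 1, 2 or 3 was left out (log2 fold change 0.87, 0.84 and 0.95, edgeR adjusted p = 0.17, 0.167 and 0.0994) and when RC48 replicate 3 was (0.83, edgeR adjusted p = 0.151), while the estimate stayed near 0.89 and calls over all genes fell to between 68 and 93. With the offset for GC content HSPB8 had 0.97 (edgeR adjusted p = 5.0e-04). Named after their values were seen, HSPD1 and DNAJB6 were called only with that offset among these 2 fits. HSPD1, the HSP60 of mitochondria, was at 417, 415 and 393 CPM in Control and 218, 313 and 292 CPM in RC48 libraries (log2 fold change −0.57, edgeR adjusted p = 0.124, and −0.48, edgeR adjusted p = 0.018, with the offset). DNAJB6, an HSP40 protein, had 0.38 (edgeR adjusted p = 0.148), and 0.37 with the offset (edgeR adjusted p = 0.0262). Of 14 cochaperones of HSP70 and HSP90, 5 were positive and 9 negative with a median of −0.15, and none passed, at an unadjusted p under 0.05 either. The lowest p-values were those of UNC45A (log2 fold change 0.42, edgeR adjusted p = 0.276), a myosin chaperone, and CDC37 (0.41, edgeR adjusted p = 0.277), which brings kinases to HSP90. RC48 replicate 1 was highest in both, and they stood at 0.17 and 0.18 without it and at 0.11 and 0.08 with the offset for GC content. Both were called without RC48 replicate 2 (0.59 and 0.57, edgeR adjusted p = 0.0345 and 0.0353), as were 28.3% of all genes. Of the 8 subunits of TRiC, the chaperonin that folds tubulin and actin, 2 were positive and 6 negative, and none passed, nor had an unadjusted p under 0.05. Their median was −0.10, and 0.11 with the offset for GC content. CCT6A (−0.24, edgeR adjusted p = 0.285) and CCT8 (−0.30, edgeR adjusted p = 0.286) had the lowest p-values, and both lost their negative sign with that offset, at 0.13 and 0.00.

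In the endoplasmic reticulum, where calreticulin is made, 20 other chaperones and folding enzymes were tested. None passed (1 at an unadjusted p under 0.05), 6 were positive and 14 negative, and the median was −0.11. HSP90B1, the HSP90 of this compartment, was at 687, 650.1 and 649.6 CPM in Control and 344, 586 and 500.5 CPM in RC48 libraries (log2 fold change −0.47, edgeR adjusted p = 0.244, and −0.29 without RC48 replicate 1). PPIB, a prolyl isomerase, had 0.38 (edgeR adjusted p = 0.286), and 0.16 without RC48 replicate 1. Of 11 genes on the route by which calreticulin reaches the surface, none passed (1 at an unadjusted p under 0.05) and the median was −0.17. BAX, which permeabilises mitochondria, was at 143, 144 and 116 CPM in Control and 288, 144 and 188 CPM in RC48 libraries (0.62, edgeR adjusted p = 0.241), and 0.30 without RC48 replicate 1. KDELR2, a receptor that returns proteins to the endoplasmic reticulum, was lower in every RC48 library (−0.33, edgeR adjusted p = 0.267). Without RC48 replicate 2, HSP90B1 (−0.65), PPIB (0.52), BAX (0.82) and KDELR2 (−0.47) were called, as were 28.3% of all genes.

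Of 13 other genes of ATP release and breakdown, none passed (2 at an unadjusted p under 0.05) and the median was −0.08. ATG7, an enzyme of autophagy, had a log2 fold change of 0.30 (edgeR adjusted p = 0.251) and PANX2, another pannexin, 0.61 (edgeR adjusted p = 0.254). PANX2 was highest in RC48 replicate 1, and it had 0.25 without that library and 0.24 with the offset for GC content. It was called without RC48 replicate 2 (0.81, edgeR adjusted p = 0.0284), as were 28.3% of all genes. Of 7 other danger signals, 2 rose and 0 fell, and 2 had an unadjusted p under 0.05. IL1A, a cytokine released from damaged epithelium, was at 9.19, 8.34 and 9.54 CPM in Control and 31, 50.3 and 35.7 CPM in RC48 libraries, a 4.32-fold rise (log2 fold change 2.11, standard error 0.21, edgeR adjusted p = 0.00224). S100A9, a subunit of calprotectin, was at 20.8, 21.3 and 16.5 CPM in Control and 51.3, 51.6 and 58.8 CPM in RC48 libraries (log2 fold change 1.46, standard error 0.15, edgeR adjusted p = 0.00301). The median of these danger signals was 0.03, and −0.16 with the offset for GC content.
Of 10 other annexins, 7 were positive and 3 negative with a median of 0.26, and 4 had an unadjusted p under 0.05. ANXA3, a calcium-dependent membrane-binding protein, was at 7.29, 7.18 and 7.36 CPM in Control and 25.8, 28.2 and 32.5 CPM in RC48 libraries (log2 fold change 1.98, standard error 0.15, edgeR adjusted p = 6.4e-04). IL1A, S100A9 and ANXA3 were called without any single library, with a highest adjusted p of 0.0408, 0.033 and 0.0189, and in each of them all RC48 libraries lay above Control. Of 8 receptors and uptake checkpoints that were tested, 0 passed, and 0 had an unadjusted p under 0.05. Their median was 0.09. CD47, the signal against uptake that is set against calreticulin on the cell surface, was at 61.1, 63.2 and 58.5 CPM in Control and 58.4, 96.1 and 88.1 CPM in RC48 libraries (0.41, edgeR adjusted p = 0.276). With the offset for GC content it was called (0.78, edgeR adjusted p = 0.00276), as it was without RC48 replicate 1 (0.59, edgeR adjusted p = 0.00358). It had 0.26 without RC48 replicate 2 (edgeR adjusted p = 0.269) and 0.12 by limma in 5 libraries (adjusted p = 0.653). LRP1, the receptor of phagocytes for calreticulin, was at 150.5, 146 and 183 CPM in Control and 348, 152 and 186 CPM in RC48 libraries (0.52, edgeR adjusted p = 0.318, and 0.08 without RC48 replicate 1). It was called without RC48 replicate 2 (0.74, edgeR adjusted p = 0.0498), as were 28.3% of all genes.

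**Figure D5:**
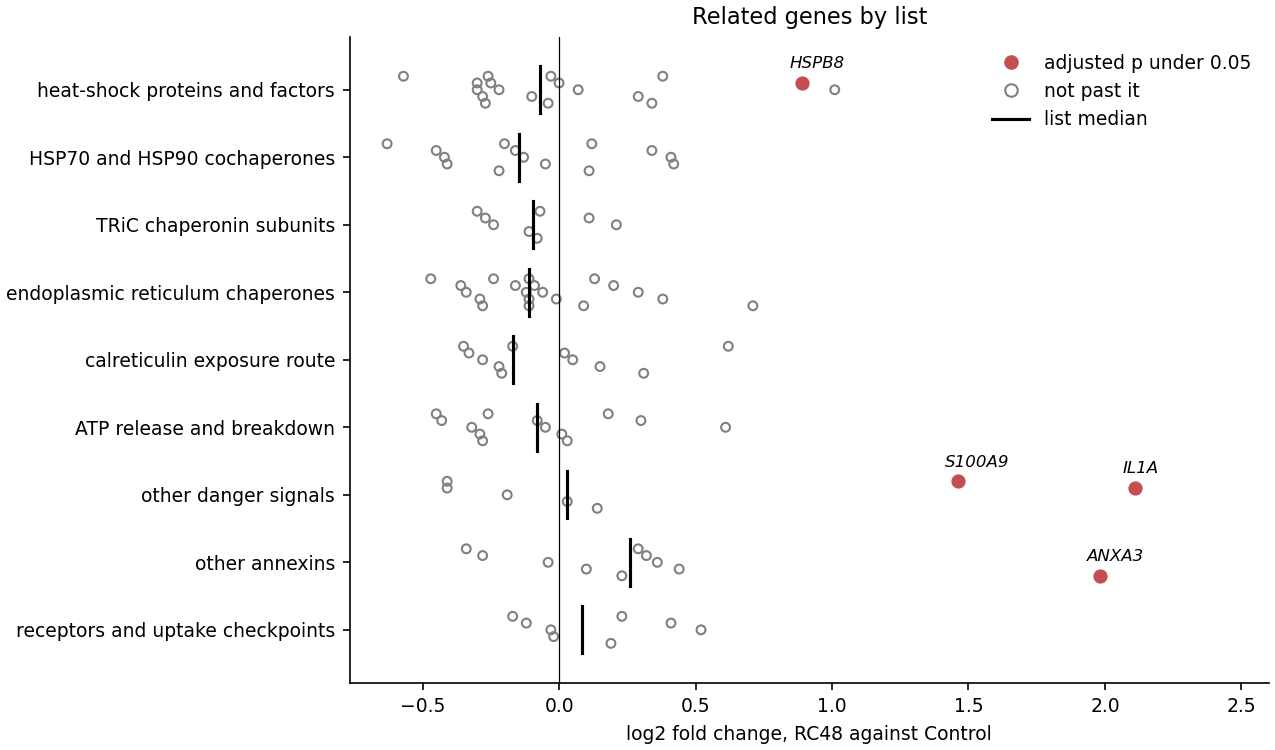
Log2 fold change of RC48 against Control (horizontal axis) for the 109 tested genes of 9 lists, 1 row per list. Red points passed an adjusted p of 0.05 in edgeR, open circles did not, and black bars are list medians. The 4 red points are HSPB8, S100A9, IL1A and ANXA3, all to the right of 0.

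Of the 7 luminal markers, 3 had positive and 4 negative estimates, from 0.12 for KRT8 to −1.55 for KRT20, and only KRT20 was called. KRT20, a keratin of luminal urothelium, fell from 1.97, 2.03 and 1.94 CPM in Control to 0.486, 0.514 and 1 CPM in RC48 libraries (edgeR adjusted p = 0.0489), on 8 to 35 counts per library. When Control replicate 1, 2 or 3 was left out, its log2 fold change was −1.56, −1.53 and −1.56 and the edgeR adjusted p was 0.215, 0.232 and 0.231. Of 4 basal markers, 2 were positive and 2 negative, and of 3 stromal and endothelial markers tested, 1 was positive and 2 negative, none of them called. At an unadjusted p under 0.05 there were 3 luminal, 1 basal and 2 stromal and endothelial markers. Of the 4 leukocyte markers tested, 0 passed and 2 had an unadjusted p under 0.05, all 4 with positive estimates. The part of these markers in the values of the 10 genes was not tested.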

How the data were processed

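Total RNA of SW780 was sequenced in 3 Control and 3 RC48 libraries. Reads were filtered by the authors (SOAPnuke), mapped (Bowtie2) and counted per gene (RSEM). The submitters' processing notes name hg38, while versions and annotation are not given in the sources used here. The deposited expected counts (RSEM estimated counts, not normalized) covered 6 libraries and the deposited TPM, normalized by the authors for length and depth, covered 5. TPM of RC48 replicate 2 was derived from its counts with effective lengths taken from the other libraries (genes with at least 20 counts and 1 TPM). Derived and deposited TPM of RC48 replicate 3 differed by a median of 0.037 (absolute log2 difference) over 12338 genes.

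Counts were rounded, filtered with filterByExpr, scaled with TMM factors and compared by edgeR's quasi-likelihood F-test (edgeR 4.0.16, limma 3.58.1, R 4.3.3), with Benjamini-Hochberg adjustment and a threshold of 0.05. The procedure was tested on simulated data. The members and lists were chosen with earlier results of these data known. Named are the 10 members and, from each list, up to 3 largest rises and falls among called genes, or the 2 lowest p-values where none was called. HSPA8 and HSP90AB1, named as references, were chosen with their values known. GC content came from GENCODE v29 transcripts (16289 genes, 99.4%), and its offset was each library's loess trend (span 0.3). Promoters came from RefSeq (GRCh38.p14), read sharing from 50-base stretches of GENCODE transcripts. Alternatives, 18 in all, were DESeq2 1.42.0, RLE factors, library sizes alone, other filters, limma on log2(TPM+1) or log2(TPM+0.1), voom with quality weights, the GC offset, a replicate block, and each library left out. Figures were drawn with matplotlib 3.10.9.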

Additional observations from a re-analysis of the deposited data

How the results depend on the processing

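The number of genes called over the whole table was 288, and 744 by DESeq2, 926 with the GC offset, 676 with the replicate block and GC offset, 2998 by limma on log2(TPM+1) in 5 libraries, 8018 by voom with sample quality weights, and 68 to 3726 with 1 library left out. Of the 10 genes, 4 were called by limma in 5 libraries, 6 by voom, and 0 to 4 with 1 library left out. Called genes of the lists were 7 by DESeq2, 9 with the GC offset, 7 with the replicate block and GC offset, 31 by limma in 5 libraries, 68 by voom, and 3 to 26 with 1 library left out. The main fit tested 109 list genes. Over all genes, 7.09% were called with the GC offset, 24.3% by limma in 5 libraries and 61.4% by voom. The sum of HSPA1A and HSPA1B was called by limma in 5 libraries (log2 fold change 0.55), by voom (0.46) and without RC48 replicate 2 (0.70, edgeR adjusted p = 0.0214), and ran from 0.35 to 0.70 with 1 library left out. Signs turned for CALR (−0.08 with the GC offset and with the block and GC offset), HSPH1 (0.08 in both), CCT6A (0.13 and 0.11), CCT8 (0.00 with the GC offset) and ANXA1 (−0.02 with library sizes alone, −0.07 by limma on log2(TPM+1) and on log2(TPM+0.1) in 6 libraries, −0.17 in 5 libraries, and −0.03 to 0.08 with 1 library left out). HSPB8 lost its call by limma in 6 libraries (0.77 and 0.79), and KRT20 with library sizes alone (−1.61). Over the 18 alternatives, HMGB1, HSP90AA1, PDIA3 and DNAJB1 stayed negative and PANX1, HSPA1A and HSPA1B positive.

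Correlations of same-numbered deviations over genes were 0.00204, −0.132 and 0.00478, while those of differently numbered libraries ran from −0.112 to 0.131. These are deviations from means of 3 libraries, and in RC48 they carry the trend with GC content. They cannot settle whether replicate numbers pair the samples. With the replicate block, 331 genes, 0 of the 10 and 4 list genes were called, and the sum of HSPA1A and HSPA1B had a log2 fold change of 0.53 (edgeR adjusted p = 0.14). Counting error reached 8.4% above the value at the lowest count of the 10 genes, and the cause of the other differences between settings was not tested.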
